A study of Mus musculus with 79 samples.

Results

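The 38 Hox genes described here are the rows of the expression table that carry the name of a Hox gene of the HoxA, HoxB, HoxC or HoxD cluster on a list fixed by gene name. They are 38 of the 25965 genes in the table, with 10 members in HoxA on chromosome 6, 10 in HoxB on chromosome 11, 9 in HoxC on chromosome 15 and 9 in HoxD on chromosome 2. The rule that defines them uses gene names only, and the set was proposed with earlier results of these data known. In adult hypothalamus they were nearly silent in +/+ mice, with 25 RNA-seq reads on all 38 genes over 5 libraries, and a contiguous group in HoxA from Hoxa3 to Hoxa7, together with Hoxd8, had more reads in every Δ/D329A library than in any +/+ library. The promoters of the same genes carried more H3K4me3 and less H3K27me3 in every Δ/D329A library than in any +/+ library. In the planned fit over all promoters none of them was called for either mark. That fit recovered 0 of 200 simulated 2-fold changes in H3K27me3 and 9 of 200 in H3K4me3. The H3K4me3 calls of a later limma fit were lost without Δ/D329A replicate 1.

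Hox genes encode homeodomain transcription factors that give cells along the head-to-tail axis their position. They lie in clusters in the order in which they are used along the axis, with low paralogue numbers active towards the hindbrain and high numbers active in the trunk, tail and limbs. The hypothalamus develops from forebrain, in front of the region where Hox genes are normally switched on, and there the clusters are held silent by Polycomb complexes, which mark the chromatin with H3K27me3. H3K4me3 marks the starts of active genes, and promoters with both marks are called bivalent. H3K36me3 is laid down along the bodies of transcribed genes, and the PWWP domain of DNMT3A, the DNA methyltransferase mutated here, is a reader of this mark.

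The data are from whole hypothalamus of C57BL/6 mice aged about 14 weeks, taken from the study of a Dnmt3a allele with an aspartate to alanine change (D329A) in the PWWP domain. The +/+ mice carried no mutant allele, and the Δ/D329A mice carried the D329A allele from the father and a deleted allele (Δ) from the mother, whose floxed Dnmt3a was removed in the oocyte by Zp3-Cre. The Δ/D329A cells therefore had no wild-type Dnmt3a allele, so that the effect of D329A cannot be told apart from that of losing a functional copy, and other genotypes are not analysed here. RNA-seq was made from 5 +/+ and 4 Δ/D329A animals, and native ChIP-seq for H3K27me3, H3K4me3 and H3K36me3 with an input library from 3 animals of each genotype. The hypothalamus is a mixture of cell types. More or fewer cells that express a gene and more or less RNA per cell therefore cannot be told apart.

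Reads on genes, mitochondrial genes left out, numbered 5491833 to 9721895 in +/+ and 3834484 to 6519054 in Δ/D329A RNA-seq libraries, and ChIP-seq libraries held 12676361 to 30207875 uniquely mapped reads. Dnmt3a itself stood at 3.28 to 4.31 reads per kilobase of transcript and 1000000 reads (RPKM) in +/+ and 2.84 to 3.30 in Δ/D329A, a gene-level value that does not separate the alleles. The summed level of 12 genes of hypothalamic neurons was 363 to 753 RPKM in +/+ and 423 to 632 in Δ/D329A, so the labelled tissue carries its markers in both genotypes. The sources name males for ChIP-seq and, in different places, females and males for RNA-seq. All 9 RNA-seq libraries had 2694 to 7044 reads on Xist, and the Y-linked genes Kdm5d, Eif2s3y, Uty and Ddx3y had 1 read in all, while the stretch of chromosome Y with these genes held 1.059 to 1.13 times the mean signal of chromosome X in the 6 ChIP-seq inputs. The RNA-seq libraries thus carry the marks of females and the ChIP-seq libraries those of males, so expression and histone marks come from different animals, and assay and sex cannot be told apart where they are set side by side. Over 10 kb windows of the genome, the median H3K4me3 signal stood at 0.355 reads per 1000000 in replicate 1 of Δ/D329A and at 0.123 to 0.222 in the remaining 5 libraries of that mark.

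The sequences around the starts of 5 members are shown because the results turn on them. Hoxa7 and Hoxd8 had the most reads in Δ/D329A, Hoxa4 and Hoxa6 had more reads and more H3K4me3 there, and Hoxd1 had H3K4me3 in both genotypes. Each runs from 250 bases before to 50 bases after the start that the expression table lists for the gene, 5′ to 3′ on the strand of the gene, from the RefSeq assembly GRCm38.p6, with CG dinucleotides, the sites of CpG methylation, in capitals. Hoxa7 lies at chr6:52221805-52222104 on the minus strand, Hoxa4 at chr6:52191704-52192003 on the minus strand, Hoxa6 at chr6:52211307-52211606 on the minus strand, Hoxd8 at chr2:74704365-74704664 on the plus strand and Hoxd1 at chr2:74762730-74763029 on the plus strand.
Hoxa7: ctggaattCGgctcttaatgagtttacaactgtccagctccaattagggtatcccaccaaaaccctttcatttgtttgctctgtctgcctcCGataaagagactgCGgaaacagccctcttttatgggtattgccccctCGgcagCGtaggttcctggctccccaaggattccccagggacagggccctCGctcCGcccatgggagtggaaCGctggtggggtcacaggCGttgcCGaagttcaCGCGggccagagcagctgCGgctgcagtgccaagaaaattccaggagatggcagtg
Hoxa4: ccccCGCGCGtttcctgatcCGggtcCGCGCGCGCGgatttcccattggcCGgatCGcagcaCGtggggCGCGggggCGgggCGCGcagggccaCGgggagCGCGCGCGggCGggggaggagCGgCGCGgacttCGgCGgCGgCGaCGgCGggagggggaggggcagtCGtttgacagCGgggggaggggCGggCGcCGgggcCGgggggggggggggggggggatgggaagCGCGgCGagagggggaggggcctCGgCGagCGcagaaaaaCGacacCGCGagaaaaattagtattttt
Hoxa6: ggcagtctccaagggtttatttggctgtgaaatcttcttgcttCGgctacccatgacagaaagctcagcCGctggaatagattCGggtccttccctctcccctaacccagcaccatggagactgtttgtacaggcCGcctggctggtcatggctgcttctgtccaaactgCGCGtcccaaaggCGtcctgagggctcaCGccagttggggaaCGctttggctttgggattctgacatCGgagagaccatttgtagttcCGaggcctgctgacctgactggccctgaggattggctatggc
Hoxd8: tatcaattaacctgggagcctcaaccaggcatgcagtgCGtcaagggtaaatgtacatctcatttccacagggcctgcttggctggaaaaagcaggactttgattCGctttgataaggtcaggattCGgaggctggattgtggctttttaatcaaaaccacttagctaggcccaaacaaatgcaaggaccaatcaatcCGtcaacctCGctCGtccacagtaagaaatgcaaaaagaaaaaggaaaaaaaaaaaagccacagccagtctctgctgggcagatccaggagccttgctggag
Hoxd1: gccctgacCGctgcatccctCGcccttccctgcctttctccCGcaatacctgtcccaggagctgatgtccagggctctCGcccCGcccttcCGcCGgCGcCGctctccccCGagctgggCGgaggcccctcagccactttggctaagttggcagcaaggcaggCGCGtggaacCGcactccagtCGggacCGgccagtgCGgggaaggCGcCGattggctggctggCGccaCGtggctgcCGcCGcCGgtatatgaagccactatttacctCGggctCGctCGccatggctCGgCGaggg

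These 300 bases hold 47 CpG sites at Hoxa4, 29 at Hoxd1, 13 at Hoxa7, 11 at Hoxa6 and 6 at Hoxd8. Over all 38 members the number ranged from 2 to 47 with a median of 13, beside a median of 10 over 25946 genes of the table whose start could be read. A window with at least as many CpG sites as that of Hoxa4 was found at 1.51% of all starts, and with at least as many as that of Hoxd8 at 62.6%. The members with the clearest differences between genotypes thus included both CpG-dense (Hoxa4) and CpG-poor (Hoxd8) starts. The counts at Hoxa6 and Hoxa7 hold for listed starts that lie 2634 and 4349 bases from those of their principal transcripts. The letters CCAAT, searched on both strands, were found in 25 of 38 member windows (65.8%) and in 37.4% of all windows, and TATAAA, also on both strands, in 7 (18.4%) and 13.1%. These are matches of letters only.

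Expression was compared first as reads. All members together had 1, 1, 2, 3 and 18 reads in the +/+ libraries and 29, 56, 75 and 87 reads in the Δ/D329A libraries, or 0.167 to 3.26 against 7.56 to 15.4 reads per 1000000 reads on genes. The groups did not overlap, and the pooled ratio was 15.9 (exact 95% interval of counting error 10.5 to 25.02). The 18 reads of +/+ replicate 4 fell on 10 members, 4 of them on Hoxb4, 3 on Hoxa2 and 3 on Hoxc9, and the pooled ratio was 47.4 (22.7 to 119) without this library. Of the 38 members, 15 had a read in any +/+ library and 27 in any Δ/D329A library, and 9 had none in the 9 libraries (Hoxb2, Hoxb3, Hoxb5, Hoxb8, Hoxc6, Hoxc10, Hoxc11, Hoxd4 and Hoxd12). The reads were unevenly spread over the clusters, with 7 in +/+ against 168 in Δ/D329A in HoxA and 3 against 55 in HoxD, but 8 against 11 in HoxB and 7 against 13 in HoxC.

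**Figure D1:**
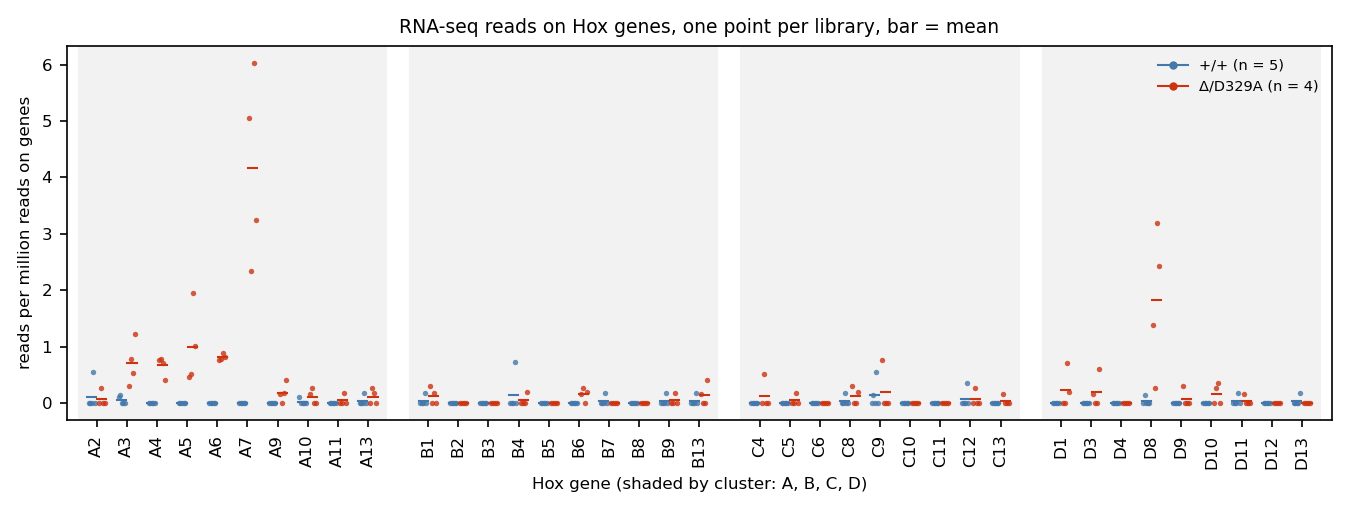
RNA-seq reads per 1000000 reads on genes (vertical axis, linear) for the 38 Hox genes ordered by cluster and paralogue number, with 1 point per library and a bar at the mean of 5 +/+ (blue) and 4 Δ/D329A (red) libraries. The Δ/D329A points of Hoxa3 to Hoxa7 and of Hoxd8 lie above the +/+ points, Hoxa7 reaches 6.04 reads per 1000000, and the HoxB and HoxC genes stay near 0 in both genotypes.

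Hoxa7, a thoracic-level gene of the trunk, had the most reads. It had 0 reads in each of the 5 +/+ libraries and 33, 9, 34 and 16 reads in Δ/D329A replicates 1 to 4, at least 49.3-fold more when 3 reads are allowed over the +/+ group as the limit that a count of 0 leaves. Hoxd8, its neighbour in paralogue number in HoxD, had 1 read in +/+ replicate 2 and none in the other 4 +/+ libraries, against 9, 1, 18 and 12 reads, a 64.3-fold ratio with an interval of 10.9 to 2602. Both genes had reads in every Δ/D329A library, and Δ/D329A replicate 2, the library with the fewest reads on genes, was the lowest for both.

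The remaining genes of the group lie beside Hoxa7 in HoxA. Hoxa6 had 0 reads in every +/+ library and 5, 3, 5 and 4 in Δ/D329A, 9.11-fold more with the same 3 reads allowed in +/+. Hoxa5, which is needed for the airway and the neck vertebrae, had 0 and then 3, 2, 11 and 5 reads, 11.3-fold more in the same way. Hoxa4 had 0 and then 5, 3, 4 and 2 reads, 7.501-fold more in the same way. Hoxa3, which is needed for the thymus and parathyroid and acts furthest towards the head among these, had 1 read in each of 2 +/+ libraries and 2, 3, 3 and 6 reads in Δ/D329A, an 11.3-fold ratio with an interval of 2.58 to 102. In reads per 1000000, Δ/D329A means were 4.17 ± 1.68 for Hoxa7, 1.82 ± 1.28 for Hoxd8, 0.987 ± 0.690 for Hoxa5, 0.812 ± 0.0537 for Hoxa6, 0.709 ± 0.389 for Hoxa3 and 0.666 ± 0.177 for Hoxa4 (SD, n = 4).

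These 6 genes were the only members with at least 10 reads over the 9 libraries, and the only ones higher in every Δ/D329A library than in any +/+ library. No member was lower in that way. Of 20392 genes with a read, 2.55% were higher without overlap, so 6 of 38 members stand beside that share, and 6 were also found without +/+ replicate 4 (3.21% of genes). The two-sided exact permutation test gives any gene without overlap its smallest p for 5 against 4 libraries, 0.00794, and so adds nothing to this count.

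In the fit over all genes on deposited log2 RPKM values (limma, adjusted p under 0.01), only 4 members passed the filter of 0.1 RPKM in 4 libraries, and all 4 passed it through the Δ/D329A libraries, so that their number supports nothing by itself. The limma fit called Hoxa7 (log2 difference 4.85, SE 0.30, adjusted p = 4.19e-05), Hoxa6 (2.58, SE 0.16, adjusted p = 4.43e-05) and Hoxa4 (2.25, SE 0.21, adjusted p = 0.000861) higher in Δ/D329A, and 0.0841% of the genes tested were called higher. Hoxa5 did not pass, with a log2 difference of 2.61 (SE 0.39, limma adjusted p = 0.0233). A gene without reads is deposited at the value of 0.9 reads, which depends on the depth of the library, so these log2 differences are not limits on the true fold: 1725 genes without a read in any library passed the filter with a median log2 difference of 0.37. Tests on the recovered reads, which do not use that value, gave fewer or other members. The quasi-likelihood test of edgeR over genes with a read called Hoxa7 (adjusted p = 3.71e-06) and Hoxd8 (0.00175), where 0.378% of genes were called higher. DESeq2 called Hoxa7 (adjusted p = 1.16e-09), Hoxd8 (0.000474), Hoxa5 (0.00473) and Hoxa6 (0.00825) but not Hoxa4 (0.0277) or Hoxa3 (0.110), where 0.648% were called higher. Hoxa7 was thus called by all 3 tools, though its limma call rests on +/+ values that all stand at the value of 0.9 reads. Hoxa3 was called by neither edgeR nor DESeq2. Hoxa3 and Hoxd8 did not pass the filter, so limma did not test them.

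The other 32 members had at most 9 reads over the 9 libraries. Hoxa2, at the head end of HoxA, had 3 reads in +/+ replicate 4 and 1 in Δ/D329A replicate 2. Beyond Hoxa7 towards the tail end of the cluster, Hoxa9 had 4 reads in Δ/D329A and none in +/+, Hoxa10 had 1 and then 2, Hoxa11 0 and then 1, and Hoxa13 1 and then 2. In HoxD, Hoxd1 had 5 reads and Hoxd3 4 reads in Δ/D329A and none in +/+. Differences of this size could not be detected at this depth. Exons of Hoxa3 and Hoxa7 overlap those of Hoxaas3 on the opposite strand, and exons of Hoxa3 and Hoxa4 those of Gm29430. The counts separated strands at Xist, where Tsix, which lies antisense to it, had 0 to 7 reads in libraries with the Xist reads given above. Exons of Hoxa2 and Hoxa3 overlap those of Gm28308 on the same strand, and reads from these cannot be told apart.

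Other genes of the Hox system were read from lists of names. None of the 9 TALE homeodomain genes tested (Pbx, Meis and Pknox genes, whose proteins bind DNA together with Hox proteins) was called by limma, edgeR or DESeq2, with 0 at an unadjusted limma p under 0.05 and a median log2 difference of 0.23 beside 0.06 over all genes tested. Of 8 tested genes among 13 that set Hox expression in the embryo or act in retinoic acid signalling, limma called 0 (2 unadjusted) and DESeq2 1, Gbx2, which marks the boundary of midbrain and hindbrain (log2 difference 1.80, DESeq2 adjusted p = 0.000133). Cdx2 had 0 reads in all libraries. Of 16 Polycomb and Trithorax genes, limma called 0 (4 unadjusted), and Cbx8, a chromobox gene of a Polycomb complex, was called higher by edgeR (adjusted p = 0.00577) and by DESeq2 (log2 difference 1.053, DESeq2 adjusted p = 2.36e-05). Of 14 tested genes at the flanks of the clusters, limma called 0 (2 unadjusted), and edgeR and DESeq2 0.

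The clusters also hold 24 other genes of the table, most of them non-coding RNAs. They had 15 reads in +/+ and 38 in Δ/D329A in all, and 11 had none. 6720416L17Rik was the only one higher without overlap, with 1 read in +/+ replicate 2 against 1, 2, 5 and 2 in Δ/D329A. Hoxa11as had 6 reads in Δ/D329A replicate 3 and 1 in +/+ replicate 4. Hotair, an RNA of the HoxC cluster, had 3 reads, all in +/+ replicate 4, the library that also held most of the +/+ reads on members. None was called by limma (1 unadjusted), edgeR or DESeq2.

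Hox genes are normally active in hindbrain and spinal cord, so markers of neurons from there were read beside them. The summed level of 12 such markers was 0.202 to 1.003 RPKM in +/+ and 0.822 to 2.01 in Δ/D329A, and +/+ replicate 4 stood at 0.633 within the +/+ range. Slc6a5, the glycine transporter of inhibitory neurons of brainstem and spinal cord, had 4, 1, 2, 2 and 1 reads in +/+ and 38, 11, 9 and 14 in Δ/D329A (log2 difference 3.50, DESeq2 adjusted p = 3.57e-05). En2, a gene of the midbrain and hindbrain border, had 8, 4, 2, 12 and 7 against 39, 6, 31 and 27 reads (2.21, DESeq2 adjusted p = 0.00157). Tph2, the serotonin-synthesis enzyme of raphe neurons, had 6, 2, 0, 2 and 0 against 10, 2, 5 and 8 reads (1.92, limma adjusted p = 0.345), and En1 had 0, 4, 3, 2 and 0 against 12, 1, 11 and 9 (2.40, DESeq2 adjusted p = 0.108). Of the 12 markers, Phox2a and Fev were at 0 reads in all 9 libraries, and all 12 together had 224 reads in +/+ and 364 in Δ/D329A. The limma fit called 0 of the 3 markers tested (2 unadjusted). Of the other lists, the 6 endothelial markers summed to 11.5 to 26.8 RPKM in +/+ and 17.2 to 22.1 in Δ/D329A, the 6 fibroblast and meningeal markers to 7.31 to 20.9 and 10.8 to 24.3, the 4 blood markers in the table to 12.9 to 40.7 and 33.2 to 44.1, and the 6 anterior pituitary markers to 0.448 to 17.004 and 3.22 to 11.8. Among 12 hypothalamic markers Sim1 was called lower by edgeR (adjusted p = 0.00923) and DESeq2 (log2 difference −0.84, DESeq2 adjusted p = 0.000105). The part of these cell types in the reads on Hox genes was not tested.

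H3K27me3 was then read at the promoters, from 1500 bases before to 500 bases after each listed start, as the mean of 2 kb tiles in reads per 1000000 uniquely mapped reads (RPM). In +/+ all 38 member promoters were called above input (ratio of at least 2 and limma adjusted p under 0.05), at 4.89 to 10.5 times input, where 11.7% of all promoters were called, and all 38 were among the 10% of promoters with the most H3K27me3. Members with and without reads in Δ/D329A thus started from high H3K27me3. In Δ/D329A 37 of 38 were called above input, and the exception was Hoxa7 at 1.86 times input.

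Hoxa7 had the largest difference, with 4.66, 4.77 and 4.46 RPM in +/+ and 1.18, 1.60 and 1.55 RPM in Δ/D329A, a log2 difference of −1.63. Hoxa4 followed with 7.05, 6.27 and 6.52 against 4.13, 4.91 and 3.33 RPM (−0.68). Hoxa2, which patterns the hindbrain and pharyngeal arches, had 7.17, 7.45 and 7.64 against 4.37, 5.10 and 6.14 RPM (−0.52). The 3 promoters did not overlap between genotypes. Hoxa5, with 7.58, 8.59 and 6.77 against 4.74, 5.96 and 5.33 RPM, and Hoxd8, with 5.79, 5.49 and 5.95 against 3.16, 4.60 and 4.54 RPM, did not overlap either.

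The direction was shared by most members. The log2 difference was below 0 at 36 of 38 promoters, with Hoxc4 (0.03) and Hoxb1 (0.01) as the exceptions, and its median was −0.22 beside −0.02 over all promoters and 0.05 over the 10% richest in H3K27me3. At 25 promoters every Δ/D329A library was lower than every +/+ library (9 in HoxA, 6 in HoxB, 6 in HoxC and 4 in HoxD), where 7.31% of all promoters and 11.3% of the 10% richest in the mark were lower in this way. The count of 25 depends on scaling, since it was 15 after centring each library on its median and 6 when each library was divided by its own input. The median over members stayed below that of all promoters in both, at −0.17 against 0.03 and at −0.30 against −0.06.

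The limma fit over all 25952 promoters called 0 members lower (11 unadjusted) and 0% of all promoters lower, with 2309 unadjusted in either direction. Hoxa7 had an adjusted p of 0.0594 in it. The fit includes 423 promoters without a read in any of the 6 libraries, which have no spread, and with them the prior of the variance carried 2.05 degrees of freedom against 39.0 without them. A fit without these promoters, chosen after seeing the data, called Hoxa7 (adjusted p = 3.82e-07) and Hoxa4 (0.00817) lower, where 0.18% of promoters were called lower, and edgeR on reads called the same 2 members. Leaving out any single library from that fit left 1 to 2 of them called, and 1 without each library but Δ/D329A replicate 2. The start listed for Hoxa7 lies 4349 bases from that of its principal transcript, and at the latter the log2 difference was −0.57.

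**Figure D2:**
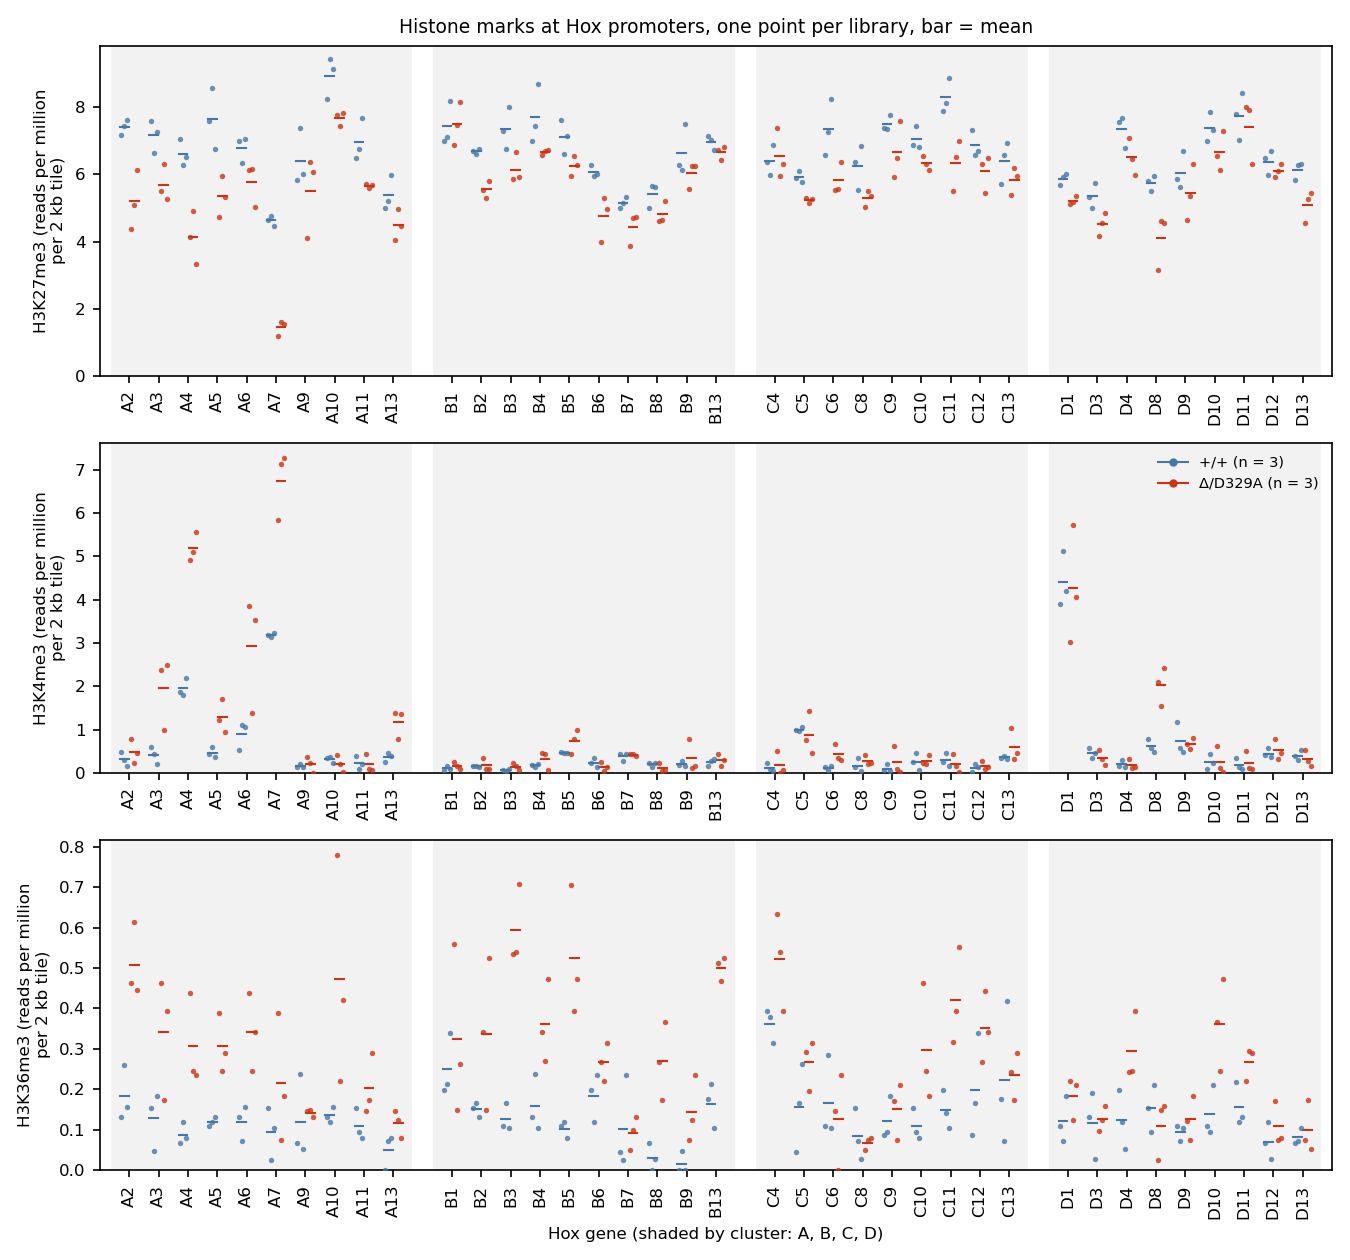
H3K27me3, H3K4me3 and H3K36me3 at the promoters of the 38 Hox genes in reads per 1000000 per 2 kb tile (vertical axes, linear and different for each mark), with 1 point per library and a bar at the mean of 3 +/+ (blue) and 3 Δ/D329A (red) libraries. H3K27me3 of Hoxa7 is 4.63 in +/+ and 1.44 in Δ/D329A, H3K4me3 is seen at Hoxa3 to Hoxa7, Hoxd1 and Hoxd8, and H3K36me3 reaches at most 0.779.

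H3K4me3 was rare at Hox promoters. In +/+ only Hoxd1, Hoxa7 and Hoxa4 were called above input, at 5.02, 3.91 and 2.38 times input, where 56.3% of all promoters were called, and 21 members were called below it, where 31% of all promoters were. After centring the ratios of each animal on their median, 0 members were called above and 36 below. These 3 promoters were also above input in H3K27me3 and so carried both marks in the bulk tissue, in which marks on the same and on different cells cannot be told apart. In Δ/D329A Hoxa6 and Hoxd8 were called as well, at 2.53 and 2.64 times input.

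The gains lay on the genes whose reads were higher. Hoxa7 had 3.19, 3.13 and 3.22 RPM in +/+ and 5.83, 7.14 and 7.26 RPM in Δ/D329A, and Hoxa4 had 1.87, 1.80 and 2.20 against 4.92, 5.09 and 5.55 RPM. Hoxa6 had 0.538, 1.097 and 1.051 against 3.86, 1.38 and 3.52 RPM. These promoters were the highest of the group in Δ/D329A. Hoxa3 had 0.60, 0.43 and 0.20 against 2.38, 0.99 and 2.48 RPM, the largest log2 difference at 1.99. The listed starts of Hoxa6 (chr6:52211356) and Hoxa3 (chr6:52213336) lie so close that their 2 kb tiles overlap. The values of these 2 promoters therefore share reads and are not independent. Hoxd8 had 0.79, 0.57 and 0.49 against 2.101, 1.54 and 2.42 RPM (log2 difference 1.56), and Hoxa5 had 0.44, 0.60 and 0.36 against 1.22, 1.70 and 0.94 RPM. In all 6 the genotypes did not overlap. Hoxa13, a gene of the limb and tail end with 2 reads in Δ/D329A, and Hoxc6, with none, were also higher without overlap, at 0.25, 0.47 and 0.39 against 1.38, 0.79 and 1.36 RPM and at 0.13, 0.07 and 0.16 against 0.66, 0.35 and 0.29 RPM.

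Hoxd1 was the contrast to these. It had the highest H3K4me3 of all members in +/+, with 3.89, 5.12 and 4.20 RPM, and 3.01, 5.72 and 4.07 RPM in Δ/D329A, so that the genotypes overlapped. The lowest log2 differences were at Hoxa10 (−0.60), Hoxb8 (−0.58), Hoxc11 (−0.51) and Hoxb6 (−0.51), all at levels under 0.5 RPM and with overlap.

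In all, 8 members were higher without overlap, 6 of them in HoxA, where 1.83% of all promoters and 3.31% of the 10% richest in H3K27me3 were, and 0 were lower. Hoxa3 and Hoxa6, whose promoters share reads, are both among the 8 and among the calls given below. The median over members was 0.17 beside −0.07 over all promoters, but it was −0.05 beside 0.04 without Δ/D329A replicate 1, the library with the high background. The limma fit over all promoters called 0 members (8 unadjusted higher, 0 lower, with 0% of all promoters called higher and 900 unadjusted). It includes 573 promoters without a read. Without these promoters, a choice made after seeing the data, Hoxa4 (adjusted p = 0.00064), Hoxa3 (0.00143), Hoxa6 (0.00637), Hoxa7 (0.00681) and Hoxd8 (0.018) were called higher by limma, where 0.158% of promoters were, and edgeR called Hoxa3, Hoxa4, Hoxa5, Hoxa6, Hoxa7 and Hoxa13 but not Hoxd8 (adjusted p = 0.549). Leaving out Δ/D329A replicate 1 from that fit took all calls away, with 0 of 25379 promoters called by limma and 1630 unadjusted, among them 8 members higher and 1 lower. When any other single library was left out, 1 to 5 members were called, and 1 without Δ/D329A replicate 3.

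H3K36me3 was low at the members. In +/+ 37 of 38 were called below input, where 61% of all promoters were, and the means of all 38 lay at 0.0158 to 0.362 RPM. In Δ/D329A it was higher at 35 of 38, with a median log2 difference of 0.62 beside 0.11 over all promoters and 0.27 over the 10% richest in H3K27me3. At 17 promoters the genotypes did not overlap (6 in HoxA, 6 in HoxB, 2 in HoxC and 3 in HoxD), where 8.99% of all promoters and 20% of those 10% were higher in this way. Hoxb3 was the highest of these, with 0.11, 0.17 and 0.10 RPM in +/+ and 0.54, 0.54 and 0.71 RPM in Δ/D329A, a log2 difference of 1.62, and Hoxb5 followed with 1.60 and Hoxb8 with 1.49. None of these 3 genes had a read in any RNA-seq library. Conversely, Hoxd8 and Hoxa7, with most reads, overlapped in H3K36me3, at 0.15, 0.10 and 0.21 against 0.02, 0.15 and 0.16 RPM and at 0.15, 0.02 and 0.11 against 0.39, 0.07 and 0.18 RPM.

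The limma fit called 0 members for H3K36me3 (15 unadjusted higher), where 0.0154% of promoters were called higher. Without the 502 promoters that have no read, Hoxb3 was called (adjusted p = 0.0352), where 0.0314% were. It was not called when any single library was left out, and edgeR called 0 (13 unadjusted higher). The values rest on few reads, since 0.1 RPM is about 2 reads per tile at these depths. In the input libraries limma called 0 members (2 unadjusted) and the median log2 difference was 0.01, so the differences of the marks were not seen in input.

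**Figure D3:**
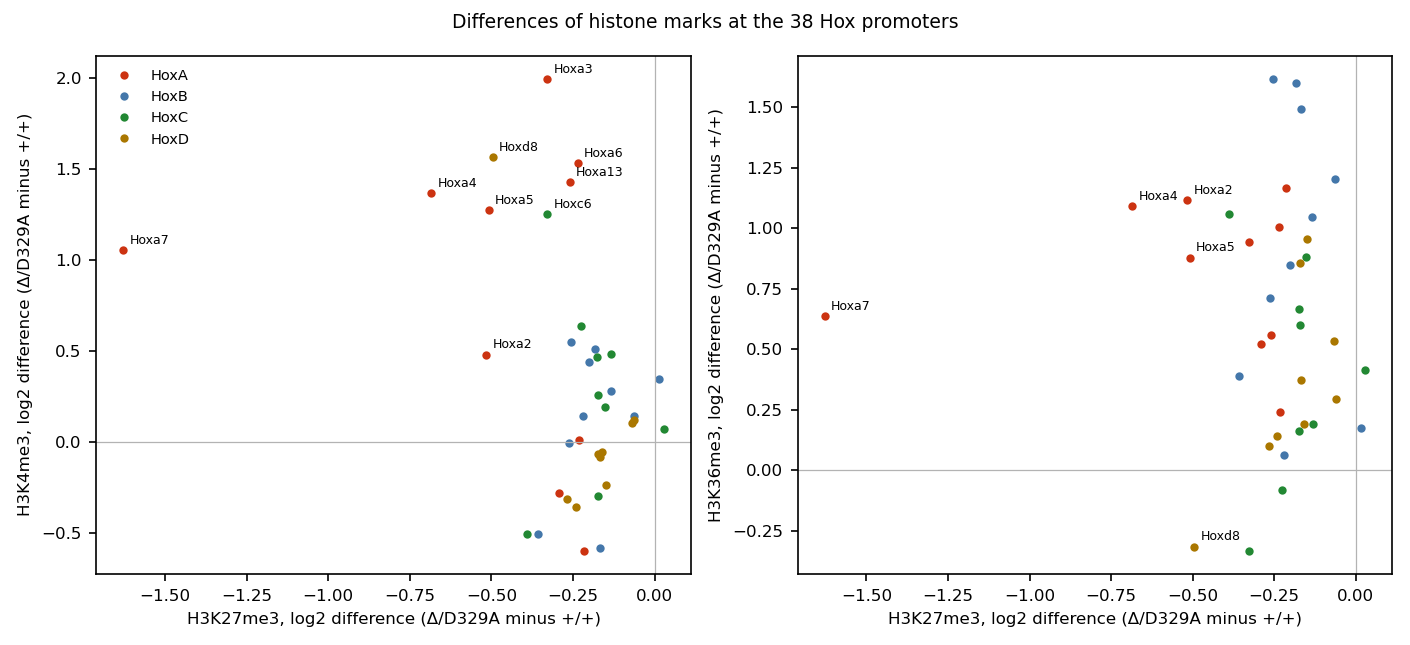
Log2 differences (Δ/D329A minus +/+) of H3K27me3 on the horizontal axis against H3K4me3 (left) and H3K36me3 (right) at the 38 Hox promoters, with 1 point per gene coloured by cluster. Hoxa7 stands at −1.63 for H3K27me3, Hoxa3 to Hoxa7, Hoxa13, Hoxc6 and Hoxd8 lie above 1 for H3K4me3, and H3K36me3 is above 0 for 35 genes.

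Across the 38 members the H3K27me3 and H3K4me3 differences had a Spearman correlation of −0.28, and the H3K4me3 difference and the reads in Δ/D329A one of 0.36. These describe the members only, since members of a cluster are neighbours, the marks share their animals, and reads and marks come from animals of different sex. The H3K36me3 and H3K27me3 differences had a correlation of −0.03.

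The marks were also followed along the clusters, from the start of their foremost to the end of their last member. Averaged over a cluster, H3K27me3 in Δ/D329A was 0.753 times that in +/+ in HoxA (7.34 ± 0.18 and 5.53 ± 0.44 RPM, SD, n = 3), 0.822 times in HoxD, 0.846 times in HoxC and 0.896 times in HoxB, without overlap in any cluster. H3K4me3 was 2.25 times higher in HoxA (0.423 ± 0.0509 and 0.954 ± 0.117 RPM) and 1.52 times in HoxD without overlap, and 1.38 times in HoxC and 1.22 times in HoxB with overlap. Without Δ/D329A replicate 1, the library with the high background, these H3K4me3 ratios were 2.104 in HoxA, 1.41 in HoxD, 1.07 in HoxC and 0.805 in HoxB, so that the direction in HoxB turned. H3K36me3 was 2.43 times higher in HoxA (0.145 ± 0.0130 and 0.352 ± 0.0734 RPM), 2.04 times in HoxC, 1.68 times in HoxD and 1.59 times in HoxB, without overlap in any. The levels stayed low, with the highest cluster mean at 0.401 RPM (HoxB in Δ/D329A). The median H3K36me3 over 10 kb windows of the genome was 0.523 to 0.574 RPM in the 6 libraries, and input in HoxA was 0.860 RPM in +/+ and 0.909 in Δ/D329A. Input was 1.025 to 1.059 times higher with overlap in each. HoxA thus had the lowest H3K27me3 ratio and the highest H3K4me3 and H3K36me3 ratios.

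**Figure D4:**
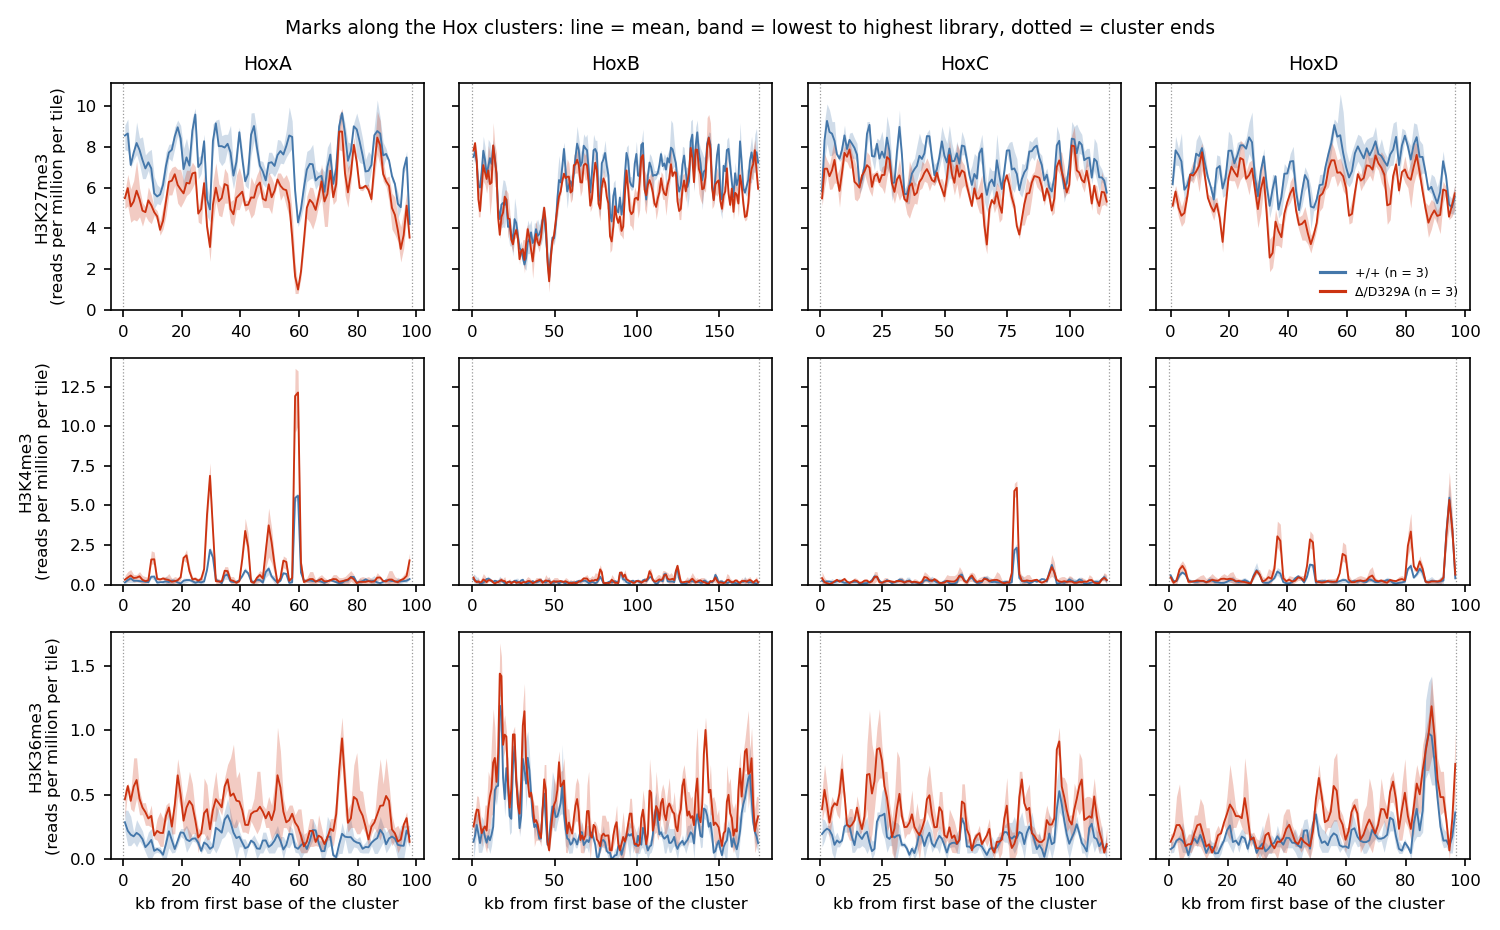
H3K27me3, H3K4me3 and H3K36me3 (rows) along the 4 Hox clusters (columns) in reads per 1000000 per 2 kb tile against the distance in kb from the foremost base of the cluster, with a line at the mean and a band from the lowest to the highest of 3 libraries for +/+ (blue) and Δ/D329A (red). In HoxA H3K27me3 is lower over most of the cluster with a dip at 60 kb where H3K4me3 reaches 12.1, and H3K36me3 is raised as a broad band.

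In windows of 10 kb, H3K27me3 was lower without overlap in 41 of 50 (10 of 10 in HoxA, 11 of 18 in HoxB, 11 of 12 in HoxC and 9 of 10 in HoxD), where 9.23% of the windows of the genome were. H3K4me3 was higher without overlap in 13 of 50, where 2.13% were, 7 of them in HoxA and 4 in HoxD. H3K36me3 was higher without overlap in 34, where 7.07% were, and its log2 difference was above 0 in all 50. Neighbouring windows are not independent.

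In the fit over all windows limma called 0% of the genome lower in H3K27me3 or higher in H3K4me3 or H3K36me3, with 0 windows of the clusters called and 16, 12 and 37 of them unadjusted. Without the windows that have no read, a choice made after seeing the data, 9 windows of the clusters were called higher in H3K4me3 (6 in HoxA, 2 in HoxD and 1 in HoxC), where 0.0359% of windows were, and 20 in H3K36me3 (8 in HoxA, 5 in HoxB, 5 in HoxC and 2 in HoxD), where 0.0862% were. In H3K27me3 0 were called (19 unadjusted), where 0.0176% were called lower, and the lowest was the window with the start of Hoxa7, with a log2 difference of −0.69 (limma adjusted p = 0.0517). The H3K36me3 windows called in HoxA reached from that of Hoxa2 to that of Hoxa10 and Hoxa11, without the window of the start of Hoxa7, the gene with most reads. These counts rest on all 6 libraries, since leaving out any single library left 0 to 6 windows called in H3K36me3, and leaving out Δ/D329A replicate 1 left 0 in H3K4me3.

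H3K4me3 stood in 15 separate peaks of at least 1 RPM in the 4 clusters, 7 in HoxA, 5 in HoxD, 2 in HoxC and 1 in HoxB, picked as the highest tiles at least 4 kb apart after the profiles had been seen. They were picked on the mean of all 6 libraries, and 7 of them lay below 1 RPM in +/+, which favours peaks that are higher in Δ/D329A, so the count of 12 higher without overlap is a description only, beside 2.31% of the separate 2 kb tiles of the genome with at least 1 RPM. Picked from the +/+ libraries alone, also after the data had been seen, there were 8 peaks, of which 6 were higher without overlap (3 of 3 in HoxA, 1 of 2 in HoxC and 2 of 3 in HoxD), where 1.33% of the tiles of the genome with at least 1 RPM in +/+ were. At 10 of the 15 H3K27me3 was lower without overlap, where 6.86% of those tiles were. The highest peak, at 59.7 kb in HoxA and 147 bases from a start of Hoxa7, had 5.57, 5.45 and 5.78 RPM of H3K4me3 in +/+ and 10.03, 13.5 and 12.8 RPM in Δ/D329A, while H3K27me3 in the same tile went from 4.09, 4.38 and 4.41 to 0.807, 1.03 and 1.17 RPM. This tile, at chr6:52221001-52223000, had the lowest H3K27me3 of the 15 peaks in Δ/D329A.

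Peaks at members without detected expression were also higher. In HoxC a peak at chr15:102999001-103001000, 528 bases from a start of Hoxc6, had 2.59, 2.13 and 2.23 RPM in +/+ and 5.71, 6.55 and 6.07 RPM in Δ/D329A, with H3K27me3 going from 7.43, 6.30 and 6.30 to 4.303, 4.05 and 4.01 RPM, although Hoxc6 had no read in any library. In HoxD a peak 73 bases from a start of Hoxd4, which had no read either, had 0.443, 0.133 and 0.263 against 1.63, 2.68 and 1.48 RPM, the largest ratio of the 15 at 6.91. The peak at Haglr, a non-coding RNA in HoxD, had 1.01, 1.40 and 1.12 against 2.38, 4.50 and 3.16 RPM. The 3 peaks that overlapped between genotypes lay at Hoxd1, Hoxc5 and Hoxb4.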

How the data were processed

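Hypothalamus of 14-week-old mice was measured by RNA-seq (5 +/+ and 4 Δ/D329A libraries) and native ChIP-seq (3 of each genotype for each mark and input). According to the submitters' processing notes, reads were trimmed with Trim Galore 0.4.3 and aligned to GRCm38 with HISAT2 2.0.5 or Bowtie2 2.3.2. The authors deposited expression as log2 RPKM per gene from SeqMonk, with genes without reads set to the value of 0.9 reads. ChIP signal was deposited by the authors as reads per 1000000 uniquely mapped reads in 2 kb tiles every 1 kb, without division by length and without subtraction of input.

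Whole reads were recovered from both units (all 25965 genes, tolerance 0.02, exceeded by 3 genes, and tiles within 0.01). The 13 mitochondrial genes were left out of expression. Genes with at least 0.1 RPKM in at least 4 libraries were tested with limma 3.58.1 (trend), at an adjusted p under 0.01 (Benjamini-Hochberg). Promoters and 10 kb windows were tested with limma on log2(RPM + 0.1), at an adjusted p under 0.05, and marks were set against the input of the same animal. With edgeR 4.0.16 and DESeq2 1.42.0, recovered reads were tested. R 4.3.3, Python 3.11.15, pandas 2.3.3, numpy 2.4.6, scipy 1.17.1 and matplotlib 3.10.9 were used, and the fits were tested on simulated data. Fold intervals are exact 95% intervals and cover counting error only, and a count of 0 was taken to allow 3 reads over the group. Folds over a count of 0 take the Δ/D329A count as exact and have no interval. With 3 against 3 libraries a permutation test cannot reach p under 0.10. Replicates are individual animals per the study's methods, and all libraries of a ChIP-seq replicate come from the same animal.

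Members with at least 10 reads, and the promoters with the largest and smallest differences in each mark, were named. The members and gene lists were chosen with earlier results of these data known. Starts are those of the expression table, and principal starts of GENCODE M21 were an alternative chosen after seeing the data, like the leaving out of promoters or windows without a read, the pooled reads without +/+ replicate 4, the H3K4me3 peaks and the cluster means without Δ/D329A replicate 1. Methylation libraries were not analysed here. Some results for genes of the lists are not reported here.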

Additional observations from a re-analysis of the deposited data

Results flagged for a closer look

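Hoxd8 was at 0 reads in 4 of the 5 +/+ libraries and at 0.145 reads per 1000000 (1 read) in +/+ replicate 2, so that this library stood apart from the others by the whole range of the group. This rests on a single read. Any gene with reads in only 1 library of a group shows such a gap, as 13 of the 15 Hox genes with a +/+ read did, so it does not mark +/+ replicate 2 as unusual.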

How the results depend on the processing

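The number of Hox genes called higher in expression (3 with limma) was 1 with edgeR after its own filter and stayed within 1.5 times in the other alternatives, with 3 without any single library. For promoters, 0 members were called in H3K27me3 and H3K4me3 by the planned fit, against 4 and 6 among promoters of at least 0.5 RPM, 1 and 2 after median centring, 1 and 2 after quantile normalization, 2 and 6 with edgeR and 2 and 5 among promoters with a read, where leaving out single libraries gave 0 to 2 and 0 to 5. H3K36me3 had 1 call among promoters with a read. Against input in +/+, H3K4me3 (24 called) gave 2 with a pseudocount of 1 RPM and 5 at 4-fold, with 23 to 24 without single animals. H3K36me3 (37 called) gave 0, 21 and, after median centring, 10, with 36 to 38 without single animals. Along the clusters, the planned fits called 0 windows. H3K4me3 had 9 windows called among windows with a read, 1 after median centring, 3 in 20 kb windows and 0 to 8 without single libraries. H3K36me3 had 20 among windows with a read, 15 after median centring and 0 to 6 without single libraries, and H3K27me3 0 to 1 without single libraries. Promoters or windows without a read have no spread, and leaving them out changed the prior of the fit. For the other differences between settings the cause was not tested.

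Deviations of same-numbered libraries of the genotypes correlated at −0.05 to 0.14 in RNA-seq and 0.01 to 0.08 in H3K27me3. They correlated at −0.26 to 0.23 in H3K4me3 and −0.0044 to 0.067 in H3K36me3. These few values show no clear pairing by replicate number, and whether same-numbered libraries share a batch was not tested. With the replicate block, 3 Hox genes were called in expression, 0 promoters in each mark, and 7 windows in H3K4me3. With the replicate block and only features with a read, 4 promoters in H3K27me3 and 5 in H3K4me3 were called, and 4, 8 and 20 windows in H3K27me3, H3K4me3 and H3K36me3.

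The H3K27me3 difference at Hoxc4 turned to −0.26 at the principal start and −0.022 with edgeR, and ranged from −0.062 to 0.094 without single libraries, with −0.020 without +/+ replicate 2. At Hoxb1 it was −0.015 as a ratio to input and −0.015 with edgeR, and −0.046 to 0.085 without single libraries, with −0.027 without +/+ replicate 1 and −0.014 without +/+ replicate 2. The H3K4me3 difference at Hoxa10 was 0.47 at the principal start. Of 416 results for single members, 336 kept their direction and side of the threshold and 15 turned. A filter of 0.5 RPKM left no Hox gene to test, and a filter of 0.5 RPM no H3K36me3 promoter. At this depth 32 of 38 genes had fewer than 10 reads.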
